A study of Mus musculus with 4 samples.

Results

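The genes of the cardiac contractile machine were looked up in a list of Zeb1-bound regions of mouse embryonic stem cells (mESC). The 10 members were chosen by name as sarcomere and calcium-release genes of heart muscle, and a peak was counted for a member when the gene symbol column of the list held exactly its name. Of the 10, 2 members, Acta1 and Ryr2, had a row in the list and the other 8, Actc1, Myh6, Myh7, Myl2, Myl7, Tnnt2, Tnni3 and Ttn, had none. The list holds 17435 peaks carrying 12271 gene names, and 3 of these peaks were given to a member.

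Chromatin immunoprecipitation followed by sequencing (ChIP-seq) recovers the DNA that a protein binds, and an input library of the same chromatin made without the antibody gives the background. All libraries came from D3 mESC, an established cell line, at passages 5 to 8 in ground-state-like medium (GS), with 1 μM PD0325901, a MEK inhibitor, 3 μM CHIR99021, a GSK-3 inhibitor, and 20 ng per mL LIF. Cells were fixed in 1% formaldehyde, DNA was broken into pieces near 200 bp, and 3 ChIP libraries were made with 8 μg of antibody to Zeb1 each, beside 1 input library. For each peak the list gives the authors' means of the ChIP reads, of the input reads and of the enrichment (ChIP over input), without values per library, so no SD or test accompanies the values and every comparison is a description. The enrichment was scaled by the authors for mapped reads before averaging and is not the quotient of the printed reads, which had a median of 0.482 times the enrichment over all peaks. In 49.0% of peaks the mean of the ChIP reads, multiplied by 2 or by 3, was not whole within 0.01. There it is no plain mean of whole read numbers from 2 or 3 libraries. The paper states that reads per sample were scaled to equal depth and that values per sample were averaged. It gives no number for the divisor.

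Heart muscle contracts when myosin heads of the thick filament pull on actin thin filaments, a movement that calcium released through the ryanodine receptor switches on by way of the troponin complex. The genes of this machine are switched on late, during cardiomyocyte differentiation, and several are standard markers of heart muscle derived from mESC. Zeb1 is a zinc finger and homeodomain repressor that binds E-boxes of the CACCTG type and is best known for silencing epithelial genes.

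Zeb1 was listed over the start of the calcium release channel gene and along the skeletal α-actin gene, and at the starts of none of the other 8 members. Among 21000 protein-coding RefSeq genes, 53.3% had an assigned peak, against 2 of 10 members. An assigned peak whose centre was within 5 kb of the transcription start site (TSS) was found for the same 2 members, and for 45.1% of all genes. Whatever gene a peak was given to, the same 2 members had a peak centre within 5 kb of any of their RefSeq TSSs, against 51.5% of genes. Only Ryr2 had a peak lying over a TSS, as did 47.8% of genes. A peak over the gene or its 5 kb flanks was found for 4 members, Acta1, Ryr2, Myh7 and Myh6, and for 58.8% of genes. The map of peaks around each member's TSS shows these few peaks against otherwise empty gene bodies.

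**Figure D1:**
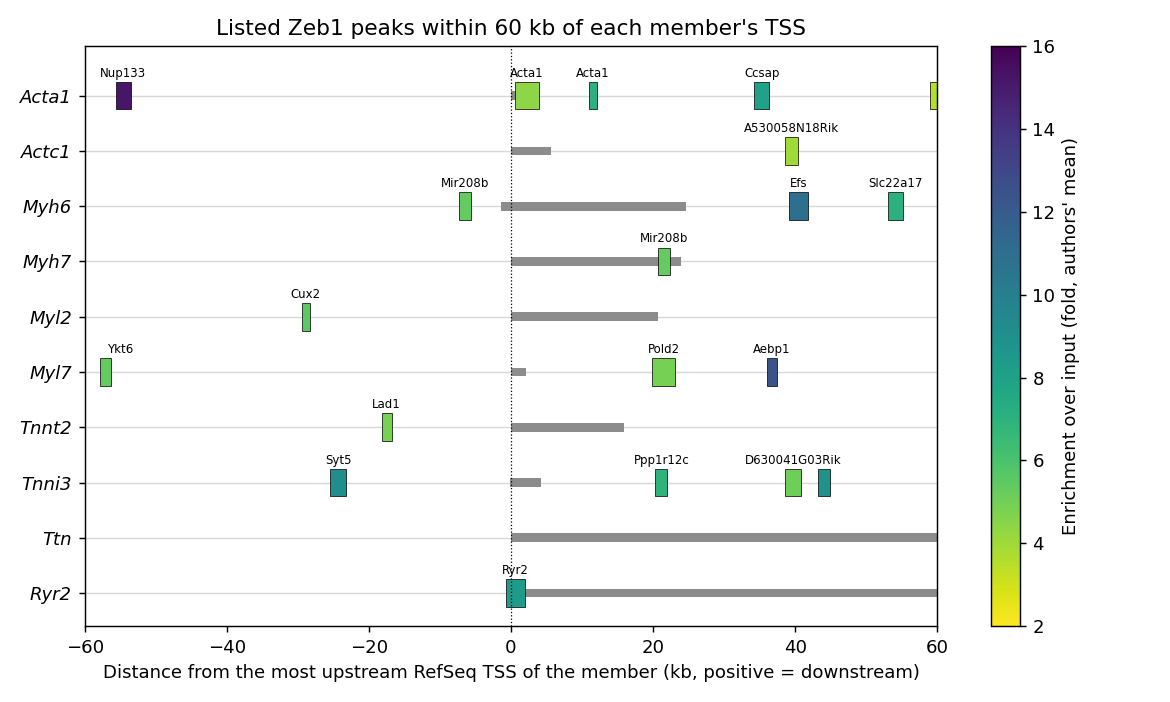
Listed Zeb1 peaks within 60 kb of the most upstream RefSeq TSS of each of the 10 members, with distance in kb on the horizontal axis, gene bodies as grey bars and peaks as boxes coloured by enrichment over input and named by the gene they were given to (a neighbouring gene at its first peak only). Only the Ryr2 peak, with an enrichment of 8.3, crosses a member's TSS, and the Acta1 peak ends 525 bp short of the start.

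The promoters of 4 members are printed to show the DNA that was or was not under a peak. Each is the RefSeq window of 300 bases from 250 before to 50 after the TSS in GRCm38.p6, 5′ to 3′ along the gene, in lower case with each CG dinucleotide in capitals. The Ryr2 window lies wholly under its peak, and the other 3 have no base under one.
Ryr2 promoter, chr13:12106896-12107195, minus strand: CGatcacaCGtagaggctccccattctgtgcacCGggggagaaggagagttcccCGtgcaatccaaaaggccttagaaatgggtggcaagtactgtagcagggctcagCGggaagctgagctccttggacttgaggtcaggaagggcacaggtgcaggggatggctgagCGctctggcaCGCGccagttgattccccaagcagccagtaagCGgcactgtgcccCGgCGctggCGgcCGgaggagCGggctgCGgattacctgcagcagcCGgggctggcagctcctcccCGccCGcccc
Acta1 promoter, chr8:123894726-123895025, minus strand: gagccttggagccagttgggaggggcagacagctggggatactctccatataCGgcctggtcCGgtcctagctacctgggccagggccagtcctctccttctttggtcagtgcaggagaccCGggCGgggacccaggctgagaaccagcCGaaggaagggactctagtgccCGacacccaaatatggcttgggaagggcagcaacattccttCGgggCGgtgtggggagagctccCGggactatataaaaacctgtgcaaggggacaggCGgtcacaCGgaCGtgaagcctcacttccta
Myh6 promoter, chr14:54966558-54966857, minus strand: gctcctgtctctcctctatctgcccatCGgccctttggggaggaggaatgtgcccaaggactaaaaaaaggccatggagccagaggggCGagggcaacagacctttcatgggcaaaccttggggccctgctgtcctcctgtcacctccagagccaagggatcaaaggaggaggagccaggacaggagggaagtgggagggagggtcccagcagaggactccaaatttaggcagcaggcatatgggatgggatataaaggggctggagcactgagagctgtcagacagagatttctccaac
Myl7 promoter, chr11:5898733-5899032, minus strand: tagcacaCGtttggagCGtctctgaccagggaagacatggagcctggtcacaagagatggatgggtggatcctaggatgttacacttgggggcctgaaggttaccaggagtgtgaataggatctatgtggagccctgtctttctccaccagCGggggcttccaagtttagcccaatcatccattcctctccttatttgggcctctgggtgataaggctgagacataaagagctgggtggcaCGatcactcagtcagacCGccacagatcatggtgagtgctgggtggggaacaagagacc
Ryr2 has 18 CG in its window, Acta1 12, Myl7 5 and Myh6 2, and the median over 32851 RefSeq promoter windows is 7. All 10 members matched this table, with 13 windows between them.

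Ryr2 codes for the ryanodine receptor of the heart, the channel of the sarcoplasmic reticulum that releases calcium at each beat. Its peak (mm10, chr13:12105001-12107650, gene on the minus strand) was 2650 bp long and had 89 ChIP reads, 23 input reads and an enrichment of 8.3. In the same order, these values were higher than those of 89.8%, 79.6% and 72.8% of all peaks. The centre lay 620 bp downstream of the TSS, in intron 1 of 104, and 1945 bp of the peak were inside the gene. The authors' annotation placed it in a CpG island, a class that holds 14.0% of all peaks. Per kb of peak, Ryr2 had 33.6 ChIP reads, more than 82.4% of peaks, and 8.68 input reads, more than 57.1%. Among the 9468 genes with an assigned peak within 5 kb of the TSS, 70.8% had a lower best enrichment than Ryr2. This was the member with the clearest Zeb1 peak, and it was a promoter peak.

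Beyond its start, the Ryr2 gene was empty. The gene spans 553847 bp and is longer than 99.1% of genes, yet no other listed peak fell in it. The next peak beyond its 3′ end was 1696899 bp away, was given to Zmynd11, lay in an IAP repeat element and had an enrichment of 2.95. The gap between this peak and the Ryr2 promoter peak was 2248800 bp, and 38 of 17414 gaps between neighbouring peaks were longer. On the 5′ side the nearest peak was 180906 bp from the gene. It was given to Mtr but lies in exon 12 of Actn2, the muscle α-actinin that cross-links thin filaments at the Z-disc, with 24.5 ChIP reads, 13.5 input reads and an enrichment of 4.4. Of 80 genes within 10% of the length of Ryr2, 87.5% had a peak over the gene or its 5 kb flanks, so in having a peak Ryr2 was like most genes of its length.

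Acta1 codes for skeletal α-actin, the thin filament actin of skeletal muscle that is also made in the fetal heart. Its larger peak (chr8:123890851-123894250, gene on the minus strand) was 3400 bp long, with an enrichment of 4.37 from 63.4 ChIP reads and 30.1 input reads. The ChIP reads were above those of 73.7% of peaks and the input reads above those of 92.3%, while the enrichment was above that of only 17.2%. Input thus ranked above ChIP in this peak, which was longer than 91.5% of peaks. Per kb, it held 18.7 ChIP reads and 8.87 input reads, higher than in 17.1% and 59.4% of peaks. The centre fell in coding exon 6 of 8, 2225 bp downstream of the TSS, and 2493 bp of the peak lay in the gene, which is 3018 bp long. The list calls it a promoter peak, yet its upstream edge stopped 525 bp inside the gene and the TSS was not covered. Among genes with an assigned peak within 5 kb of the TSS, 9.26% had a lower best enrichment than Acta1.

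The other Acta1 peak (chr8:123882651-123883850) was small. It was 1200 bp long, had 21.6 ChIP reads, 7 input reads and an enrichment of 7.04, and its centre was 11525 bp downstream of the TSS, outside the gene. Only 0.946% of peaks had fewer ChIP reads, and the minimum in the list is 20. Its enrichment was nevertheless higher than that of 57.7% of peaks, so the order of the Acta1 peaks by enrichment was the reverse of their order by reads. The nearest peak upstream of Acta1 was 53526 bp away, over the start of Nup133, with an enrichment of 15.2. Over the 3 peaks given to members the median enrichment was 7.04, beside 6.5 over all peaks. The plot of reads shows where these peaks lie among all others.

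**Figure D2:**
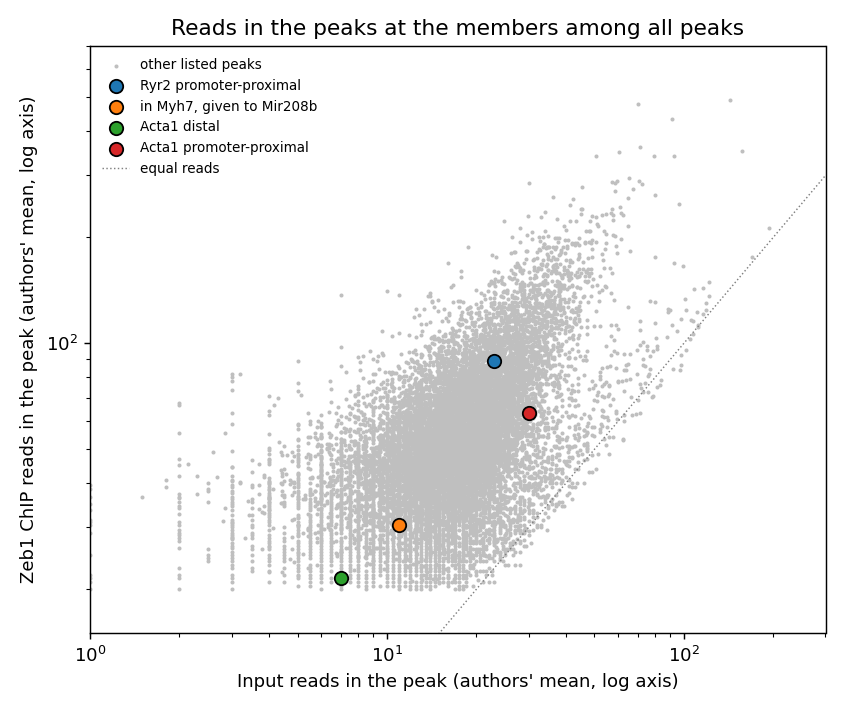
Authors' mean ChIP reads against mean input reads in each listed peak, both on log axes, with the peaks at members as large coloured points, the other peaks in grey (those with 0 input reads or outside the axes are not drawn) and a dotted line at equal reads. Ryr2, at 89 ChIP and 23 input reads, lies inside the main cloud. The larger Acta1 peak, at 63.4 and 30.1, lies toward the lower right side of the cloud. The other Acta1 peak, at 21.6 and 7, lies next to the minimum of 20 ChIP reads.

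Actc1 codes for cardiac α-actin, the main thin filament actin of the heart and the closest relative of Acta1 among the members. It had no peak over the gene or its 5 kb flanks. The nearest was 38525 bp from its TSS, downstream, over the start of A530058N18Rik with an enrichment of 4, and on the upstream side the nearest was 121626 bp from the gene, at the start of Aqr. The gap holding Actc1 was 160150 bp, longer than 75.9% of all gaps, whose median was 52500 bp. The muscle actins thus differed, with listed Zeb1 peaks at Acta1 and none at Actc1.

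The myosin heavy chain genes, the motors of the thick filament, lie next to each other on chromosome 14 and both run on the minus strand. Myh6 codes for the fast α-isoform of the adult mouse heart and Myh7 for the slow β-isoform of the fetal heart and slow skeletal fibres. Neither had an assigned peak, but a peak (chr14:54972201-54973900) of 1700 bp lay wholly inside Myh7. It had 30.5 ChIP reads, 11 input reads and an enrichment of 5.35, above 14.2%, 19.4% and 31.3% of all peaks. Its centre was in intron 37 of 40, 21499 bp downstream of the Myh7 TSS and 6443 bp upstream of the curated TSS of Myh6. Since the RefSeq gene of Myh6 reaches further upstream, the peak edge was 4184 bp from that gene, which puts Myh6 among the 4 members by its flank alone. The peak was 5594 bp from the Myh6 TSS and 20649 bp from the Myh7 TSS, so neither promoter was covered.

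The list gave this peak to Mir208b, a microRNA gene inside Myh7, whose start was 2726 bp from the centre. The whole peak also lay over Mhrt, a noncoding RNA gene of the heart read from the opposite strand, from 54968787 to 54974349. Between the starts of Myh6 and Myh7 the list thus held 1 peak, in the 3′ parts of Myh7 and Mhrt. MicroRNAs lie inside the myosin genes Myh6, Myh7 and their relative Myh7b, and their mature forms are given with the seed, bases 2 to 8, in capitals, from RefSeq for GRCm38.p6.
miR-208a-3p, inside Myh6, chr14:54949072-54949093, minus strand: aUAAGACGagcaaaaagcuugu
miR-208b-3p, inside Myh7, chr14:54975710-54975731, minus strand: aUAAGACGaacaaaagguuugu
miR-499-5p, inside Myh7b, chr2:155622893-155622913, plus strand: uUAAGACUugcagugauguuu
The seed is UAAGACG in miR-208a-3p and miR-208b-3p and UAAGACU in miR-499-5p. No peak was listed inside Myh6 or for Mir208a, while Mir208b and Mir499 were each given 1 peak that overlapped the host gene. The Mir499 peak overlapped Myh7b and ran past its 3′ end, was 10100 bp long, and had 232.0 ChIP reads, 57.6 input reads and an enrichment of 7.11. Thus, of the 3 motor genes with a microRNA of this family, Myh7 and Myh7b had a peak overlapping the gene body and Myh6 did not, a share near the 54.4% of all genes with a peak over the gene body. The choice to describe Mir208a and Mir499 was made with their values in view.

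The myosin light chains of the members mark heart chambers, Myl2 the ventricles and Myl7 the atria. Neither had a peak over the gene or 5 kb flanks. The peak nearest to a Myl2 TSS was 28274 bp upstream, was given to Cux2 and had 25 ChIP reads, 9 input reads and an enrichment of 5.5. For Myl7 it was 19832 bp downstream, near the start of Pold2, with 64.1 ChIP reads, 24.1 input reads and an enrichment of 4.91. Ventricular and atrial light chain genes were alike in having no listed peak.

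Tnnt2 codes for cardiac troponin T, which ties the troponin complex to tropomyosin, and Tnni3 for cardiac troponin I, which holds contraction off in the absence of calcium. Both were without a peak over the gene or 5 kb flanks. The nearest to a Tnnt2 TSS was 16784 bp upstream, at the start of Lad1, with an enrichment of 4.85 from 32 ChIP and 13 input reads. The nearest to the Tnni3 TSS was 20328 bp downstream, at the start of Ppp1r12c, with an enrichment of 6.95 from 23 ChIP and 8 input reads. The same Ppp1r12c peak lay within 5 kb of Tnnt1, the troponin T gene of slow skeletal muscle that neighbours Tnni3. On the other side of Tnni3 the nearest peak was at the start of Syt5, 22983 bp from the gene, with an enrichment of 9.2.

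Ttn codes for titin, the giant spring that spans from Z-disc to M-band. The gene is 278578 bp long and held no peak. Its TSS was 296954 bp from the nearest one, at the start of Sestd1, a distance greater than that of 94.2% of genes. Among 175 genes within 10% of its length, 82.3% had a peak over the gene or its 5 kb flanks. The gap holding Ttn was 603250 bp, longer than 94.7% of gaps and bounded by peaks at the starts of Plekha3 and Sestd1. By distance from the TSS Ttn was the member farthest from a listed peak, whereas its 3′ end was 27730 bp from the Plekha3 peak, nearer than the 32932 bp between Actc1 and its nearest peak.

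The peaks that border the 8 members without an assigned peak belonged mostly to the starts of other genes. Of 15 such peaks, 12 had their centre within 1 kb of the TSS of the gene they were given to, or 80% beside 52.2% of all peaks. Their enrichment ran from 4 to 10.9, the highest being the Efs peak downstream of Myh6, with a median of 6.7. Measured from the TSS to the nearest peak edge, the 10 members had a median distance of 20080 bp, against 2179 bp over all protein-coding genes. Only Ryr2, with 0 bp, and Acta1, with 525 bp, were nearer than that median.

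**Figure D3:**
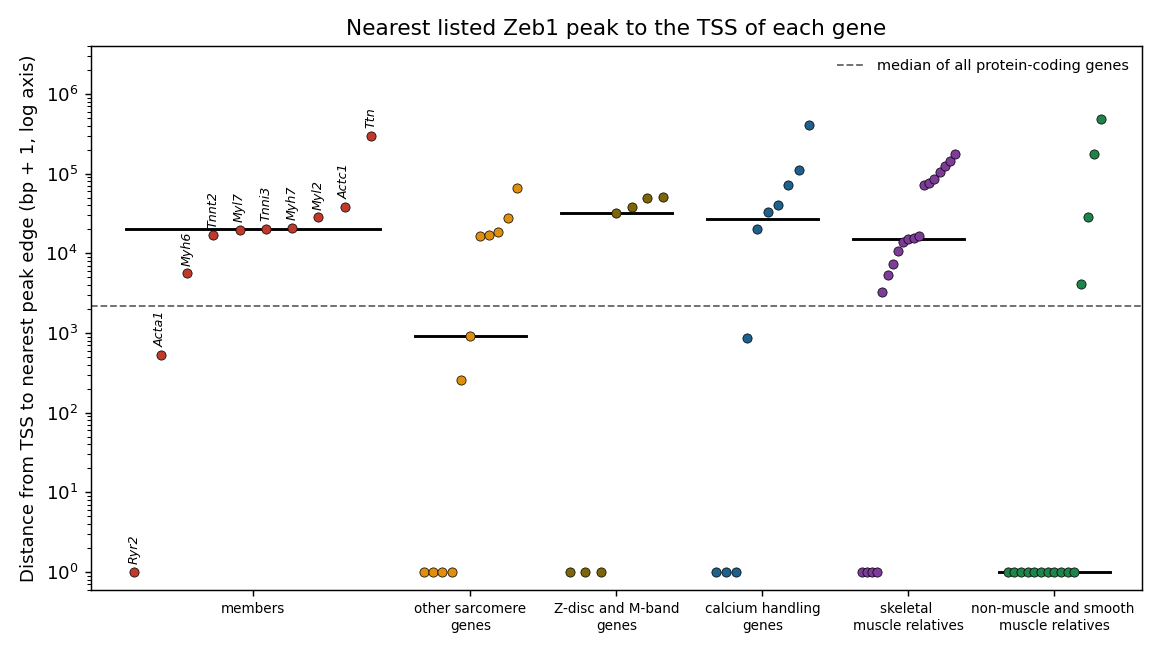
Distance from the nearest RefSeq TSS of each gene to the edge of the nearest listed peak, in bp plus 1 on a log axis, for the 10 members (named) and 5 other gene lists, with solid lines at list medians and a dashed line at the median of all protein-coding genes, 2179 bp. Apart from Ryr2 and Acta1 the members lie above the dashed line, from 5594 bp for Myh6 to 296954 bp for Ttn, whereas 11 of 15 non-muscle and smooth muscle relatives lie at 0 bp.

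The members share a feature of promoter sequence that their choice did not use. The ratio of observed to expected CpG in the 1000 bp around the most upstream TSS was 0.131 in Tnnt2, 0.133 in Myh6, 0.156 in Myh7, 0.191 in Myl2, 0.219 in Myl7, 0.225 in Actc1, 0.253 in Acta1, 0.262 in Tnni3 and 0.379 in Ttn. Ryr2 stood apart with 0.726. The median was 0.222 for the members and 0.594 for all protein-coding genes. A ratio below 0.4 was found for 9 of 10 members and for 7678 of 21000 genes. CG counts in the shorter promoter windows did not all follow this ratio. Acta1 had 12 CG, Ttn 8, Actc1 7 and the Myl2 windows 1 and 7, beside a median of 7 over all windows. The windows of Tnni3, Myl7, Myh6, Myh7 and Tnnt2 had from 1 to 5. Among 7678 genes with a ratio below 0.4, 7.03% had a peak over a TSS and 13.0% had a peak centre within 5 kb, and of the 9 members among them 0 and 1 did. Among 10367 genes with a ratio of at least 0.6, 78.9% and 80.7% did, and Ryr2 was the member in this class. The members' counts were thus close to the shares of their CpG class, and the part of CpG content in the result was not tested.

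**Figure D4:**
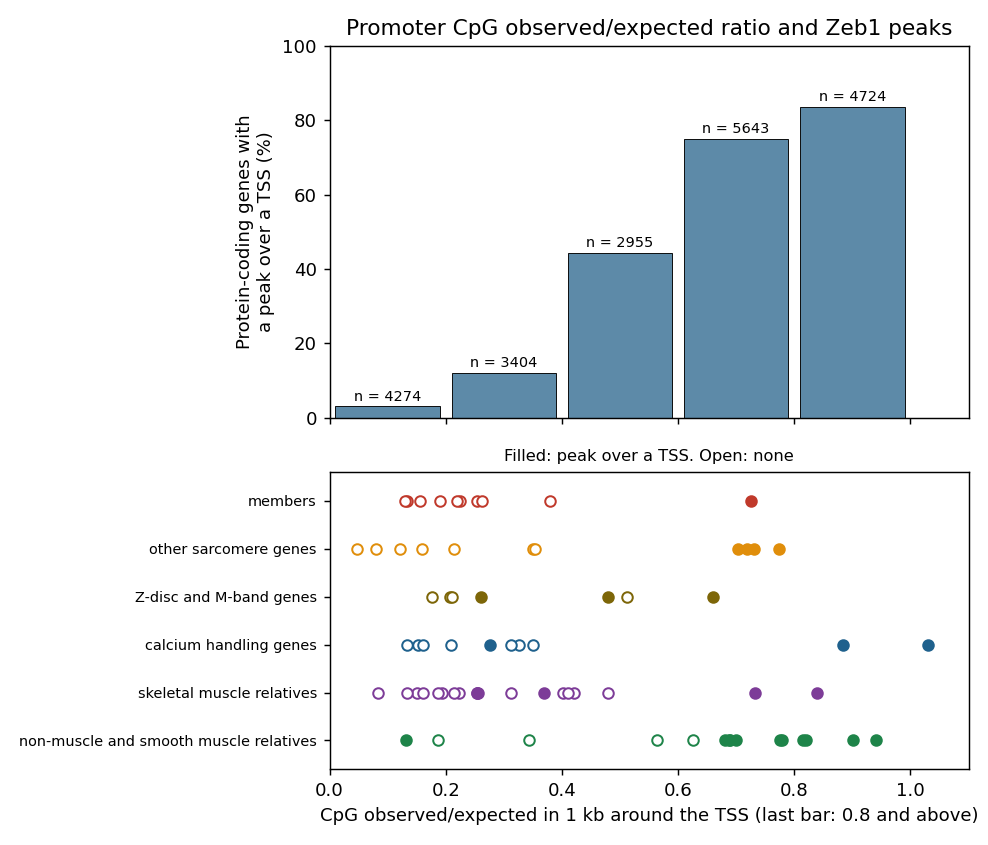
Upper panel, percent of protein-coding genes with a listed peak over a TSS in classes of the CpG observed/expected ratio of the 1 kb around the most upstream TSS, with the number of genes above each bar. Lower panel, the ratio of each member and of each gene of 5 other lists, filled where a peak lies over a TSS. The bars rise from 3.02% in the lowest class to 83.6% in the highest, and 9 of 10 members lie in the lowest 2 classes, where bars stand at 3.02% and 12.1%.

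Classical muscle elements were found in some of the members' promoter windows. A CArG box, the 10-base element bound by serum response factor, was present in the windows of Acta1, Actc1 and Myl7 and in 1.63% of all windows. A MEF2 site was present in Ttn and in 0.557% of windows. TATAAA in the 50 bases before the start was present in Acta1 and in 2.63% of windows. The same letters stood after the RefSeq start in the Myh6 and Actc1 windows, outside the bases searched. CACCTG on either strand was found in windows of Myh7, Ryr2, Tnnt2 and Ttn, 6 of the members' 13 windows, and in 20.2% of all windows. The Zeb1 motif of JASPAR, spelled CNCACCTG, CNTACCTG, TNCACCTG or TNTACCTG, contains this core where the base before ACCTG is C and was found on either strand in 4 of the 13 windows, those of Myh7, Ryr2 and Tnnt2, and in 16.9% of all windows. The 2 Myh7 windows overlap and share a CACCTG match, so windows are not independent in these counts. Letters of the motif were thus present at Myh7 and Tnnt2 starts that had no listed peak. A match describes the sequence alone. The muscle elements are printed in capitals with 10 bases on each side.
Acta1 CArG box, chr8:123894829-123894858, minus strand: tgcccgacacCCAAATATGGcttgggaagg
Actc1 CArG box, chr2:114052903-114052932, minus strand: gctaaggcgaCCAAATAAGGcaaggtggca
Myl7 CArG box, chr11:5898824-5898853, minus strand: ccattcctctCCTTATTTGGgcctctgggt
Ttn MEF2 site, chr2:76982694-76982723, minus strand: ttctgaaaggCTAAATTTAGcactgccaat

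The Zeb1 motif was present in all 3 peaks given to members and in the Myh7 peak. Of all 17435 peaks, 76.8% held it on either strand. The larger Acta1 peak had 4 matches, the Ryr2 peak 3, the Myh7 peak 2 and the smaller Acta1 peak 1. Because longer peaks hold more matches, the share with a match among peaks within 10% of the same length was 92.9%, 86.5%, 72.7% and 61.1% in the same order. Within 200 bp at the centre, the match remained only in Ryr2, as in 16.7% of all peaks. Of these matches, 9 are printed in capitals with 12 bases on each side, read 5′ to 3′ on the strand of the match.
Ryr2, 98 bp upstream of the TSS, chr13:12107028-12107059, plus strand: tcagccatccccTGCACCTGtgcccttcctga
Ryr2, intron 1, nearest to the peak centre, chr13:12106224-12106255, plus strand: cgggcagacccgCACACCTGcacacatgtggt
Ryr2, intron 1, chr13:12105122-12105153, plus strand: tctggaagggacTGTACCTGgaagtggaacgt
Acta1, intron 2, chr8:123894152-123894183, plus strand: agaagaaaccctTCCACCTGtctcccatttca
Acta1, exon 7, chr8:123892394-123892425, plus strand: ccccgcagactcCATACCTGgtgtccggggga
Acta1, downstream of the gene, chr8:123891078-123891109, minus strand: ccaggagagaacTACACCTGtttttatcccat
Acta1, smaller peak, chr8:123882955-123882986, minus strand: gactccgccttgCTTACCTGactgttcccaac
Myh7, intron 36, chr14:54973285-54973316, plus strand: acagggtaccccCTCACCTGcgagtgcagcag
Myh7, exon 38, chr14:54972898-54972929, minus strand: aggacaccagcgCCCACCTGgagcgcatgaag
CAGGT, which reads ACCTG on the other strand, is also the sequence around many 5′ splice sites, where the exon ends in CAG. Of 32824 matches in all peaks, 4362, or 13.3%, sat across the end of an exon in this way, and 3 of the 10 matches at members did. The match in Myh7 at intron 36 did so, and the match in Myh7 exon 38 lies at an exon end of Mhrt on the opposite strand. Both matches of the Myh7 peak were thus among the 3.

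Other genes of the same machine were counted from 5 lists to place the members, beside the 53.3% of all protein-coding genes with an assigned peak and the 47.8% with a peak over a TSS. Of 11 other sarcomere genes, 6 had an assigned peak, which were Myl4, an atrial and fetal light chain, Mybpc3, the heart's myosin-binding protein C, Myom2, an M-band protein, Tpm1, a tropomyosin, Nebl, nebulette, and Tmod1, which caps thin filaments. A peak over a TSS was found for Myl4, Tpm1, Nebl and Tmod1. The peak over the Myl4 start was given to Cdc27, with an enrichment of 8.92, and the assigned Myl4 peak lay 20812 bp from that start. Tpm1 had 109 ChIP reads, 25.4 input reads and an enrichment of 8.6 in its stronger peak, and Nebl 61.9, 13 and 9.43. The Myom2 peak was 462222 bp from the gene's start and lay in a repeat of ribosomal RNA type with 86 ChIP and 74 input reads, an enrichment of 2.5. The tropomyosin of the thin filament was thus listed at its start while the troponins of the members were not.

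Of 7 Z-disc and M-band genes, 3 had an assigned peak, all with a peak over a TSS. These were Tcap, telethonin, with an enrichment of 5.16, Des, the intermediate filament desmin, with 8.19, and Nexn, nexilin, with 3.69. Des had 88.6 ChIP reads and 22.9 input reads, close to the 89 and 23 of Ryr2.

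Calcium handling genes had an assigned peak in 6 of 10 cases, or 60%, near the 53.3% of all genes. A peak over the gene or its 5 kb flanks was found for 5 of 10 and over a TSS for 3 of 10. The shares of all genes were 58.8% and 47.8%. Among them Atp2a2, the pump that returns calcium to the sarcoplasmic reticulum, had a peak over its start with 64.7 ChIP reads, 28.6 input reads and an enrichment of 4.74. Cacna1c, the L-type channel that triggers Ryr2, had 61.8, 26.4 and 4.56 in the peak over a TSS, and Camk2d, a kinase that acts on Ryr2, had 76.9, 21 and 7.51. Jph2, which holds Ryr2 close to the surface membrane, had 3 assigned peaks away from its start, the highest with an enrichment of 12.1. Sln, sarcolipin, and Hrc, a calcium-binding protein of the reticulum, had assigned peaks off the TSS, and the other 4 genes had none. Over a TSS, the enrichment of 8.3 at Ryr2 was above those at Atp2a2, Cacna1c and Camk2d.

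Relatives of the members in other tissues differed by list. Of 19 skeletal muscle relatives, 5 had an assigned peak, namely Myh7b, Ryr1, Atp2a1, Actn3 and Mybpc2, beside 53.3% of all genes, and 4 had a peak over a TSS, namely Actn3, Mybpc2, Ryr3 and Mylpf. The last, a myosin light chain of fast skeletal fibres, had its peak given to Tbc1d10b, with an enrichment of 8.07. Of 15 non-muscle and smooth muscle relatives, 11 had an assigned peak and 11 a peak over a TSS. Among actins, Actb had 120 ChIP reads, 30 input reads and an enrichment of 8.2, and Actg1 had a peak over its start that was given to 0610009L18Rik, with 154, 39 and 7.8, while the smooth muscle actins Acta2 and Actg2 had none. Among myosin heavy chains, the non-muscle genes Myh9 and Myh10 had enrichments of 12.9 and 9.73 at their starts. Tpm3, Tpm4, Actn1, Actn4, Atp2a3, Itpr2 and Itpr3 also had an assigned peak over a TSS, Myl6 had one 6050 bp from its start, and Itpr1 had none. Of the ryanodine receptors, Ryr3 had a peak over its start that was given to Mir1954, with an enrichment of 10.5, and Ryr1 had 1 assigned peak inside the gene, others there that were given to Mir1963 and Map4k1, and none at its start. The cytoskeletal genes Actb, Actg1, Myh9 and Myh10 thus had peaks at their starts, and the actin and myosin genes among the members did not.

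The CpG classes were counted over these lists as well. Of the 72 genes of the members and lists together, 44 had a ratio below 0.4 at the most upstream TSS. A peak over a TSS was found for 5 of these, Actn3, Cacna1c, Mybpc2, Tcap and Tpm3, beside 7.03% of all genes in this class. In Cacna1c and Tpm3 the peak lay over another start than the one measured, which leaves 3 of the 44 with a peak over the measured start. Of 21 with a ratio of at least 0.6, 20 had a peak over a TSS, the exception being Itpr1, beside 78.9% of all genes in this class. Of 7 with a ratio from 0.4 to below 0.6, only Nexn had a peak over a TSS, beside 44.4% of all genes there. Acta1 and Actc1 stood at 0.253 and 0.225 and Actb and Actg1 at 0.815 and 0.940. Myh6 and Myh7 stood at 0.133 and 0.156 and Myh9 and Myh10 at 0.820 and 0.689. Among the ryanodine receptors Ryr2 had 0.726 and Ryr3 0.733, and both had a peak at the start. Ryr1, with 0.410, had none there. The part of CpG content in these differences was not tested.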

How the data were processed

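Zeb1 ChIP-seq and input libraries of GS mESC were processed by the authors, who aligned reads to mm10 with STAR 2.4.2a, removed duplicates with Picard 1.136, called peaks per ChIP library against the input, unified those present in at least 2 of 3 and annotated them with HOMER 4.7. The deposited read columns are a signal, mean reads per peak. The deposited enrichment is a ratio over input, normalized for mapped reads and averaged by the authors. The deposited p-value was 0 in all peaks and was not used. The authors drew the same number of reads from each sample after trimming and length filtering. The aligned depth per library is unknown from the list, so no interval was computed. The authors kept peaks of at least 20 ChIP reads and 2-fold enrichment, so a gene without a listed peak may still be bound below these limits.

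Members and lists were chosen with earlier results of these data known. Named genes were all members, list genes with an assigned peak or standing beside a member by family or locus, genes given a peak over a member or its flanks, and genes flanking a member. Nup133, Efs and the members' other neighbours entered by the last rule. Mir208a, Mir499, Mir1954, Mir1963, Map4k1, Tbc1d10b, Cdc27, Itpr1, 0610009L18Rik and Mhrt were named after their values were seen. Genes and sequence came from RefSeq, GRCm38.p6, the assembly of mm10. Positive distances lay downstream of the TSS by the reference, the opposite of the legend of the list, and the sign of the reference was used. Peaks, genes and motifs were intersected with Python 3.11.15, pandas 2.3.3, NumPy 2.4.6 and pysam 0.24.0, tested on simulated data. Alternatives were other enrichment minimums, distances, flanks, assignments and motif searches. A gene of the Z-disc list and the sequence of a motif match are not reported here.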

Additional observations from a re-analysis of the deposited data

How the results depend on the processing

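With a minimum enrichment of 8, 1 member had an assigned peak, and 20.1% of all genes did. Within 1 kb of the TSS, or with a minimum enrichment of 5, 1 member had an assigned peak near the TSS, which was Ryr2 in each case, beside 41.1% and 37.0% of genes. With flanks of 20 kb, 7 members had a peak over the gene or flanks, as did 67.9% of genes. In the 200 bp at the peak centre, 1 of the members' assigned peaks held the Zeb1 motif. The other alternatives kept each count within 1.5 times, and the median enrichment was 6.40 from ratios of the mean reads rescaled to the deposited enrichment and 7.67 over the best peak of each member.

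No paired analysis was possible because the list holds 1 mean per peak and no value per library, and leaving out a library was not run for the same reason. With 3 peaks at 2 members, a median or share over them moves with each peak. The lowest member peak had 21.6 mean reads, next to the minimum of 20, so peaks of this size can enter or leave the list with little change in depth. Assignment to the nearest start gives peaks within a gene to neighbours, as for Myh7. No expression was analysed here, and the peaks come from undifferentiated cells.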
